A study of Mus musculus with 4 samples.

Results

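The imprinted Dlk1-Dio3 locus of mouse chromosome 12 was examined on gene arrays of the mouse brain, with and without ADAR2. Its members were the transcript clusters, the probe groups that the array assigns to a transcribed site, of the window around the imprinted genes on either strand, the first starting at 109452823 (Dlk1) and the last at 110279068 (Dio3). This gave 87 of the 33793 clusters of the array. By symbol and description 46 were microRNA precursors, 22 were C/D small nucleolar RNAs (snoRNAs) and 9 were longer or unclassified RNAs. The remaining 10 lay on the strand opposite to the gene they were named for. Total RNA came from the whole brain of adult females (129SV strain), with 2 arrays from Adar2 wild-type and 2 from Adar2 knockout animals. All these animals were offspring of crosses between Adar2 heterozygous mice, and both genotypes carried the pre-edited Gria2 R/R allele, which rescues the early death of the knockout. The knockout is not limited to a cell type, and in whole-brain RNA fewer cells of a type cannot be told apart from less RNA per cell. Values are the deposited log2 signals.

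In this locus, genes for proteins are expressed from the paternal chromosome and a series of non-coding RNAs from the maternal one. The non-coding RNAs, Meg3, Rian and Mirg, run in the same direction and carry the snoRNAs and microRNAs in their introns or transcribed span. The RNAs are made in quantity in the adult brain, and several of the microRNA hairpins, those of the miR-376 family above all, are known substrates of adenosine to inosine editing by the ADAR enzymes. Inosine pairs like guanosine, so an edited adenosine in the seed, bases 2 to 8 of the mature microRNA, changes which messenger RNAs can pair with it. ADAR enzymes favour an adenosine that follows a U and precedes a G.

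The mature sequences below come from the RefSeq table for GRCm38.p6 and are shown 5′ to 3′ with the seed in capitals. The first group is the miR-376 family and its neighbours miR-300 and miR-381, on which the results turn.
miR-376a-5p: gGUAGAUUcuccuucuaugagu
miR-376a-3p: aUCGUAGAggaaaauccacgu
miR-376b-5p: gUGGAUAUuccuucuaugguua
miR-376b-3p: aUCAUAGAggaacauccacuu
miR-376c-5p: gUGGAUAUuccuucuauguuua
miR-300-3p: uAUGCAAGggcaagcucucuuc
miR-381-3p: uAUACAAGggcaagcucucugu
The second group holds the other matched sequences of the locus with UAG inside the seed.
miR-379-5p: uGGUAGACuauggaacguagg
miR-411-5p: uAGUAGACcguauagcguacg
miR-1193-5p: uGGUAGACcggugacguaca
miR-380-3p: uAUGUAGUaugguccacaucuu

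A match by name gave 83 mature sequences from 45 precursors. miR-376c-3p is not among the 83, so the counts and shares of UAG leave it out and Mir376c was judged on miR-376c-5p alone. UAG, read on the RNA strand only, lay within the seed of 7 of the 83 (8.43%), against 92 of the 1679 distinct mature sequences in the table (5.48%). In miR-376a-5p it took bases 3 to 5, and in miR-376a-3p and miR-376b-3p bases 5 to 7. In miR-379-5p, miR-411-5p and miR-1193-5p it took bases 4 to 6. Seeds were shared by 7 pairs of the 83 sequences, among them miR-376b-5p with miR-376c-5p and miR-379-5p with miR-1193-5p. Compared base by base from the 5′ end, miR-376b-5p and miR-376c-5p were identical at 21 of 22 positions, miR-376a-3p and miR-376b-3p at 18 of 21, miR-300-3p and miR-381-3p at 19 of 22 and miR-379-5p and miR-411-5p at 14 of 21. Without gaps, miR-376a-5p and miR-376b-5p were identical at only 5 of 22. The probes lie in the precursors, and the labelling copies RNA along its length, so the signals were read as those of primary or precursor RNA and not of the mature forms. The array does not read editing.

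The median log2 signal over the whole array lay between 6.03 and 6.09 on the 4 arrays. Adarb1, which encodes ADAR2, had log2 signals of 10.50 and 10.45 in wild type and 9.16 and 8.96 in knockout, and its log2 fold change was -1.42 ± 0.12 (SE, limma, unadjusted p = 2.57e-05, adjusted p = 0.409). The 4 values did not overlap between genotypes. As a guide to background, clusters of 5 Y-linked genes, absent from these females, had signals between 3.49 and 5.43. In the locus 14 clusters, 12 of them named for microRNAs, had all 4 values at or below 5.43. Signals of marker genes for pituitary, salivary gland and olfactory bulb differed between the arrays, and the cause was not tested. The log2 of the summed signals of 14 pituitary genes (15 clusters) was 9.41 and 9.20 in wild type and 11.38 and 10.72 in knockout, and 3 of its clusters passed the unadjusted test, those of Prl, Gh and Pomc, with log2 fold changes of 4.12, 3.17 and 0.51, while the pituitary factors Pou1f1 and Gnrhr stayed within the Y-linked range. That of 8 salivary genes was 8.05 and 8.11 in wild type, 11.33 in knockout 1 and 8.11 in knockout 2, and 1 of its 8 clusters passed, Dcpp2 at 0.68. That of 6 olfactory bulb genes was 10.71, 10.81, 10.74 and 10.42 in the same order. Marker lists of neurons, astrocytes, microglia, hypothalamus and choroid plexus had no cluster past the unadjusted limma test, and those of oligodendrocytes, blood and olfactory bulb had 1 each, Mog at -0.35, Alas2 at -0.735 and Cdhr1 at -0.785. Over the array 5.95% of clusters passed that test.

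The first question was whether loss of ADAR2 shifted RNA levels over the locus as a whole. It did so in none of the classes by a margin that passed correction. The lowest adjusted p among the 87 clusters was 0.770 (limma, Benjamini-Hochberg over 33793 clusters), and 0 of the 33793 clusters, or 0%, passed an adjusted p of 0.05. At an unadjusted p below 0.05, limma called 8 of the 87 clusters, 6 higher and 2 lower in knockout. Over the array 2009 clusters were called, or 5.95%, of which 3.64% were higher and 2.31% lower. That balance of 1230 higher and 779 lower depended on the scaling, with 801 and 1229 after median centring and 896 and 944 after quantile normalization. The groups did not overlap in 22 of the 87 clusters, against 34.1% over the array. The median log2 fold change of the 87 clusters was 0.085, beside 0.005 over all clusters, and it ran from -0.005 without knockout 1 to 0.135 without knockout 2. With 2 arrays a genotype the p-values measure the spread between these arrays alone, and an exact permutation test could not go below 0.333. A fit without 1 array leaves 1 array in its genotype, so the spread then comes from the 2 arrays of the other genotype. The count rested on single arrays. It was 4 without wild type 1, 9 without wild type 2, 18 without knockout 1 and 13 without knockout 2, while the array had 1221 (3.61%), 1652 (4.89%), 1801 (5.33%) and 1642 (4.86%) calls in the same order, each fewer than with all 4 arrays.

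**Figure D1:**
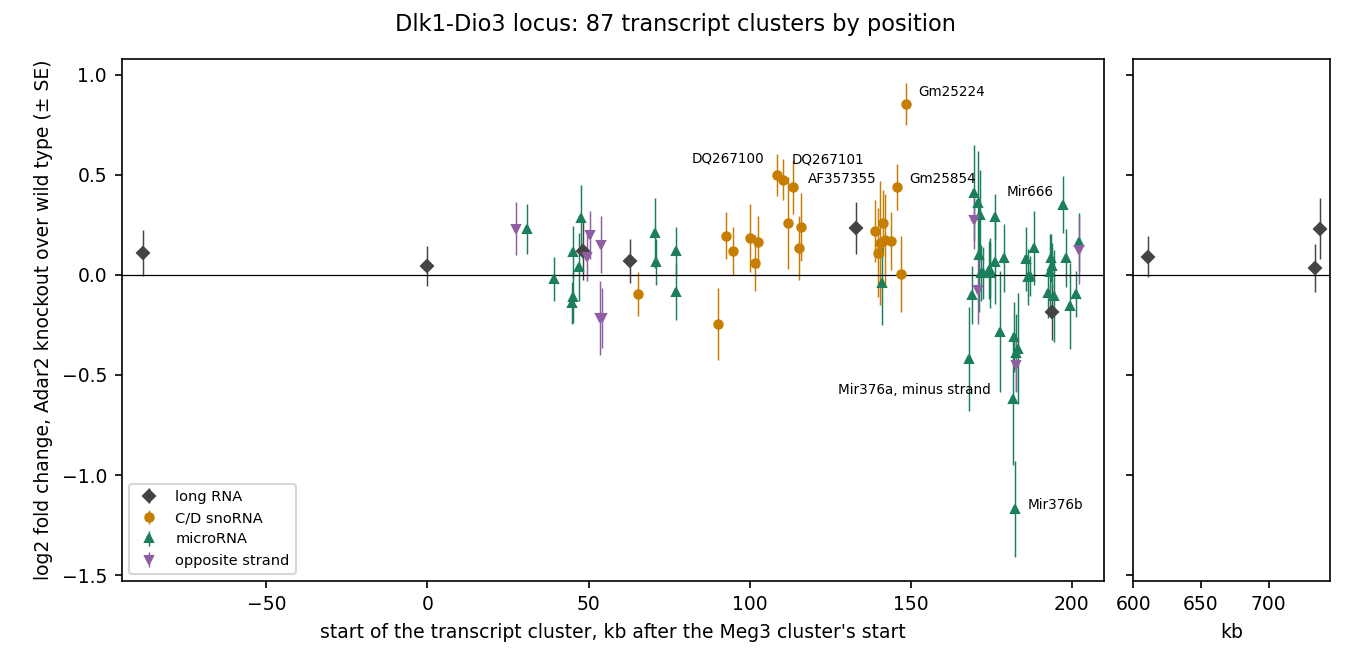
Log2 fold change of knockout over wild type (vertical axis, bars are the SE of limma) against the start of each of the 87 clusters in kb after the start of the Meg3 cluster, with symbols for the 4 classes. The 8 named clusters had an unadjusted p below 0.05, and the lowest point is Mir376b at -1.17.

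Among the long RNAs, none of those read from the maternal chromosome passed the test. Meg3, a nuclear non-coding RNA at the start of the series, had log2 signals of 10.19 and 10.18 in wild type and 10.24 and 10.22 in knockout. Both knockout values lay above the wild-type ones by a small step, and the log2 fold change was 0.045 ± 0.10 (SE, unadjusted p = 0.672). Rian, the host of the first run of snoRNAs, had 10.93 and 10.88 in wild type and 10.90 and 11.05 in knockout, and the groups overlapped. Mirg, the host of the last run of microRNAs, had 7.59 and 7.47 in wild type and 7.50 and 7.19 in knockout, with knockout 2 the lowest of the 4. Its log2 fold change was -0.185 ± 0.14 (SE, unadjusted p = 0.237).

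The genes of the paternal chromosome did not pass the test either. Dlk1, a transmembrane protein of the Notch ligand family, had 8.02 and 8.08 in wild type and 8.07 and 8.25 in knockout, so that knockout 1 lay between the wild-type arrays. The pituitary also makes Dlk1 and Meg3 RNA. Beside these values Prl, the prolactin gene, had 6.55 and 4.99 in wild type and 10.11 and 9.66 in knockout. The part of pituitary RNA in the signals of Dlk1 and Meg3 was not tested. Rtl1, a gene derived from a retrotransposon, had 5.38, 5.09, 5.45 and 5.26 on its own, minus, strand. The groups overlapped, and all values but that of knockout 1 lay within the Y-linked range. Dio3, the deiodinase that inactivates thyroid hormone, had 5.06 and 5.14 in wild type and 5.14 and 5.52 in knockout, with only knockout 2 above the others. All its values but that of knockout 2 lay within the Y-linked range. Its log2 fold change was 0.23 ± 0.15 (SE, unadjusted p = 0.183), and 0.42 without knockout 1, which leaves knockout 2 as the only knockout array. Its antisense neighbour Dio3os had 5.52, 5.54, 5.45 and 5.68. The other 2 clusters of this class of longer or unclassified RNAs are not placed on a parental chromosome here. The cluster 3110009F21Rik went from 5.72 and 5.76 to 5.81 and 5.85. An 82-base cluster at RefSeq LOC115488054, between Rian and Mir379, went from 5.47 and 5.19 to 5.59 and 5.54. Neither passed the test, but the latter did so without wild type 1 (unadjusted p = 0.0396). The median log2 fold change of the 9 clusters was 0.09, with a range from -0.185 to 0.235. An unadjusted p below 0.05 was reached by 0 of 9, beside 5.95% of clusters over the array.

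The cluster with the largest fold change of the locus was the Mir376b precursor (chr12:109723456-109723541, plus strand, 20 probes). It had log2 signals of 7.85 and 7.79 in wild type, 7.02 in knockout 1 and 6.28 in knockout 2. The knockout values were the lowest of the 4 and differed from each other by 0.74. Wild-type arrays had a mean of 7.82 ± 0.042 and knockout arrays of 6.65 ± 0.52 (SD, n = 2 each). The log2 fold change was -1.17 ± 0.24 (SE), a 2.25-fold lower signal in knockout (limma, unadjusted p = 0.00308, adjusted p = 0.834). Since the groups lay apart, leaving out a single array could not turn its sign. The log2 fold change then ran from -1.54 without knockout 1 to -0.80 without knockout 2. The unadjusted p rose to 0.0726 without wild type 1 and to 0.0648 without wild type 2.

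The other 2 members of the miR-376 family, on each side of Mir376b, were dim. Mir376a (chr12:109723781-109723848) had 4.73 and 4.86 in wild type and 4.68 and 4.13 in knockout, and Mir376c (chr12:109722718-109722803) had 3.95, 4.31, 4.01 and 3.01. In both the lowest value was that of knockout 2, and all values lay within or below the range of the Y-linked clusters. The log2 fold changes were -0.39 ± 0.19 (SE, unadjusted p = 0.0931) for Mir376a and -0.62 ± 0.33 (SE, unadjusted p = 0.109) for Mir376c. Without knockout 1, which leaves knockout 2 as the only knockout array, the log2 fold changes were -0.665 for Mir376a and -1.12 for Mir376c. A cluster on the minus strand across Mir376a had 3.25, 3.30, 2.96 and 2.69, at or below the lowest Y-linked values, with a log2 fold change of -0.45 ± 0.13 (SE, unadjusted p = 0.0138). It lost this limma call without wild type 1 (unadjusted p = 0.0775), wild type 2 (unadjusted p = 0.0980) or knockout 2 (unadjusted p = 0.0569).

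Other precursors of the same stretch showed the knockout 2 decrease without that of knockout 1. Mir300, the precursor of miR-300-3p, had 7.01 and 7.03 in wild type, 7.09 in knockout 1 and 6.21 in knockout 2. Mir654, between Mir376c and Mir376b, had 7.83, 7.78, 7.74 and 7.25. Mir381, whose mature sequence is close to that of miR-300, had 6.67, 6.33, 6.70 and 6.46, and its groups overlapped. Over the 5 clusters from Mir376c to Mir300 knockout 2 lay below both wild-type arrays in 5 and knockout 1 in 3. Knockout 1 was more than 0.1 below both only in Mir376b. Of these 5, Mir300 and Mir654 were named after their values were seen. Over the array knockout 2 lay below both wild-type arrays in 11315 of 33793 clusters and knockout 1 in 10522. In the other 29 precursors from Mir379 to Mir409 the counts were 13 and 0.

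**Figure D2:**
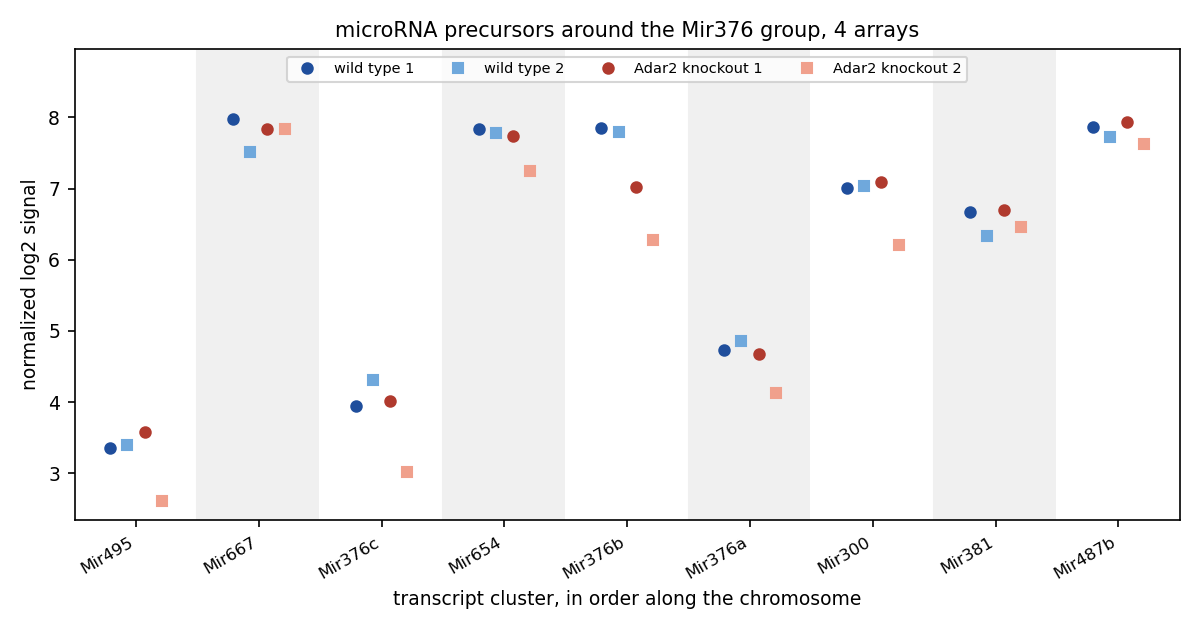
Normalized log2 signal (vertical axis) on each of the 4 arrays for 9 consecutive microRNA precursor clusters around the Mir376 group, in chromosome order. Mir376b is the cluster in which both knockout arrays, at 7.02 and 6.28, stand clearly below the wild-type arrays, at 7.85 and 7.79.

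The other precursors described as editing substrates did not follow Mir376b. Mir379 had 5.55 and 5.33 in wild type and 5.41 and 4.63 in knockout, again with knockout 2 the lowest. Its log2 fold change was -0.42 ± 0.26 (SE, unadjusted p = 0.157). Without knockout 1 it was -0.81, with the knockout 2 value of 4.63, within the Y-linked range, as the only knockout value. Mir411 had 4.32, 3.97, 4.02 and 4.07, within the Y-linked range, and Mir540, at a lower coordinate than Rtl1, had 7.17, 7.40, 7.47 and 7.33. In both the groups overlapped. Of the 6 precursors with UAG in a seed of a matched mature sequence, a count that leaves out miR-376c-3p, Mir1193 had 7.17, 7.18, 7.35 and 7.05 and Mir380 had 6.67, 6.56, 7.38 and 6.57, in neither case with a lower mean in knockout.

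Over all 46 microRNA clusters the unadjusted test called 1 higher and 1 lower, or 4.35%, beside 74 of the 874 microRNA clusters elsewhere on the array (8.47%). The higher one was Mir666, with 6.91 and 6.93 in wild type and 7.31 and 7.11 in knockout (log2 fold change 0.29 ± 0.12 SE, unadjusted p = 0.0491). The groups did not overlap in 7 of the 46 (15.2%, against 34.1% over the array). The median log2 fold change was 0.02, and it was -0.09 without knockout 1 and 0.12 without knockout 2. These counts depended on the arrays. Without wild type 1 or without wild type 2 the count was 0 (3.61% and 4.89% over the array), without knockout 1 it was 9, of which 2 were higher (5.33% over the array), and without knockout 2 it was 8, of which 7 were higher (4.86% over the array). Mir666 was not called by limma without wild type 1, wild type 2 or knockout 1 (unadjusted p = 0.154, 0.136 and 0.154), after median centring (unadjusted p = 0.0766) or under a replicate block (unadjusted p = 0.0694). The calls without knockout 1 included Mir300 (log2 fold change -0.81), Mir495 (-0.77) and Mir654 (-0.555), and those without knockout 2 included Mir380 (0.765), Mir1197 (0.545) and Mir154 (0.51). Mir154 had 6.66, 6.54, 7.11 and 6.79, just outside the threshold (unadjusted p = 0.0505). The precursors with the highest mean signals were Mir341 with 9.71, 9.48, 10.02 and 9.59, Mir453 with 9.58, 9.04, 9.43 and 8.98 and Mir665 with 8.93, 8.86, 8.65 and 8.92, and in each the groups overlapped. Mir134, whose mature form is known to repress Limk1 in dendrites, had 7.62, 7.61, 7.90 and 7.36, the knockout values on either side of the wild-type ones.

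A difference between the knockout arrays ran through the microRNA clusters. Knockout 1 was above knockout 2 in 39 of the 46 (84.8%), with a median difference of 0.30 on the log2 scale, and in 14 of them the arrays differed by 0.5 or more. Over all clusters of the array knockout 1 was the higher in 51.1%, with a median difference of 0.01, and over the 874 other microRNA clusters in 54.2%, with a median of 0.03. Those 874 were dimmer, with median signals of 4.805 to 4.955 on the 4 arrays, against 6.995 to 7.42 in the 46. Of the 874, 399 can cross-hybridize, against 6 of the 46. The wild-type arrays showed less of the difference seen between the knockout arrays. Wild type 1 was above wild type 2 in 28 of the 46, the median difference was 0.06, and in 2 they differed by 0.5 or more. Along the chromosome the knockout difference had a median of 0.14 in the 7 clusters before Rian, 0.06 in the 4 within Rian and 0.31 in the 34 from Mir379 to Mir409, where it was positive in 30. It reached 1.0 in Mir376c, 0.97 in Mir495, 0.89 in Mir1197 and 0.88 in Mir300, of which only Mir300 had a signal above the Y-linked range. Mirg, whose cluster spans the precursors from Mir453 to Mir409, had a knockout difference of 0.31, Rian of -0.15 and Meg3 of 0.02. The snoRNAs of the locus had a median of 0.035, and the 10 opposite-strand clusters of 0.175, with knockout 1 the higher in 9. The salivary and olfactory bulb markers given above also separated the knockout arrays, and their part in the microRNA difference was not tested.

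**Figure D3:**
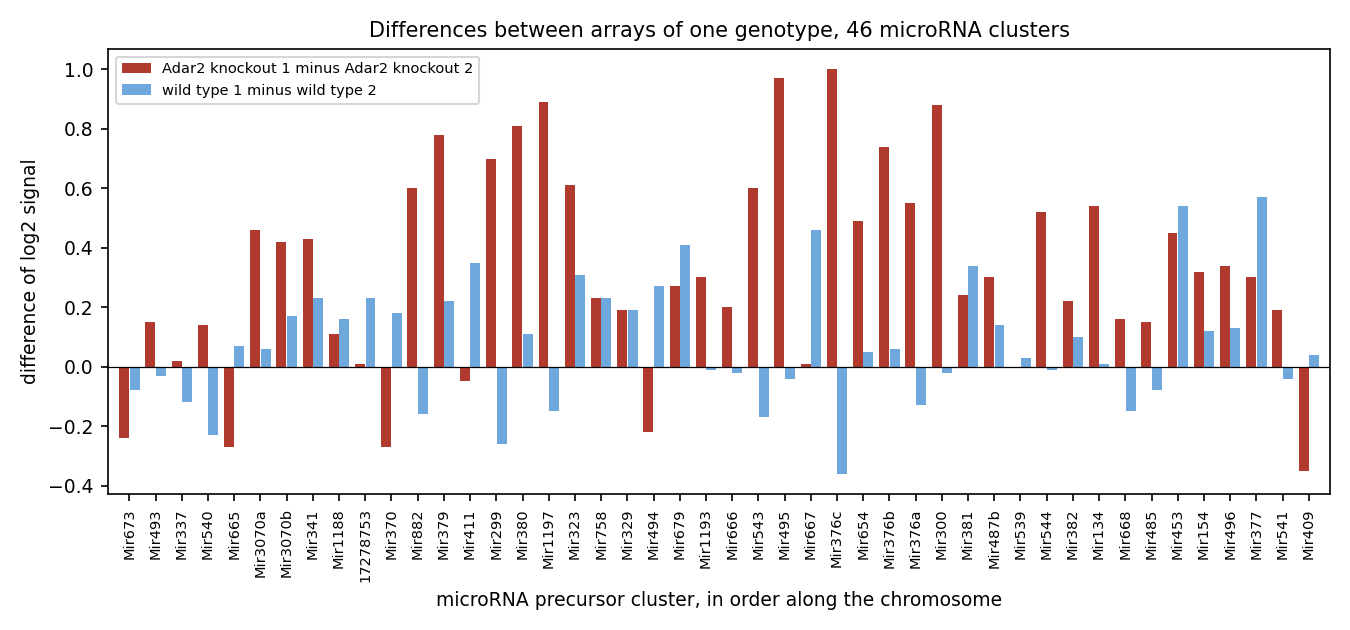
Difference of log2 signal between the arrays of a genotype (vertical axis) for the 46 microRNA clusters in chromosome order, with red bars for knockout 1 minus knockout 2 and blue bars for wild type 1 minus wild type 2. The red bars are above 0 in 39 clusters and the blue bars in 28.

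The base composition of the hairpins went with both differences. For 43 of the 46 clusters a hairpin was in the RefSeq table, with a G and C share from 29.1% in Mir376c to 62.0%. Across these hairpins, which are neighbours on the same arrays and no independent replicates, the log2 fold change had a Pearson's r of 0.44 with the G and C share (Spearman's rho 0.39), and the knockout 1 minus knockout 2 difference an r of -0.41 (rho -0.40). Single hairpins departed from this. Mir539, with 33.8% G and C, had 7.55 in both knockout arrays, and Mir134, with 60.6%, was lower by 0.54 in knockout 2. Within the stretch from Mir379 to Mir409 (32 hairpins) the values of r were 0.40 and -0.28. Without Mir376a, Mir376b and Mir376c the values of r were 0.23 and -0.30. Across 383 precursors elsewhere on the array, which were not matched to the locus for signal, they were 0.087 and -0.028.

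The C/D snoRNAs of the locus belong to the class that guides ribose methylation of RNA, and most are brain-rich orphans without a known target. The knockout mean was the higher in 20 of the 22 (90.9%), against 65.1% of the small nucleolar RNA clusters elsewhere and 50.8% of all clusters. The median log2 fold change was 0.18, and 0.33 without wild type 2, and 5 were called at an unadjusted p below 0.05, all higher (22.7%, against 3.64% over the array). Elsewhere on the array 142 of 1292 small nucleolar RNA clusters were called higher (11.0%), with a median of 0.08. No difference between these shares was tested. The clusters elsewhere were dimmer, with median signals of 4.335 to 4.44 on the 4 arrays, against 7.565 to 7.695 in the locus. Of the 1292, 650 can cross-hybridize, against 6 of the 22. The groups did not overlap in 7 of the 22 (31.8%), below the 34.1% over the array.

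The largest fold change among them was that of Gm25224 (chr12:109689477-109689544, 10 probes), the last snoRNA before the microRNAs. It had log2 signals of 5.61 and 5.64 in wild type and 6.52 and 6.44 in knockout. Each genotype was tight and the groups lay apart, with a log2 fold change of 0.855 ± 0.10 (SE, limma, unadjusted p = 0.000208, adjusted p = 0.770), a 1.81-fold higher signal. The file marks its probes as able to cross-hybridize. DQ267100 (chr12:109649617-109649688), within Rian, had 8.81 and 8.76 in wild type and 9.24 and 9.33 in knockout, with a log2 fold change of 0.50 ± 0.10 (SE, unadjusted p = 0.00346) and the same mark. Its neighbour DQ267101 had 5.63 and 5.63 in wild type and 6.14 and 6.07 in knockout, a log2 fold change of 0.475 ± 0.10 (SE, unadjusted p = 0.00396) from probes without that mark. These 3 passed the unadjusted test when any single array was left out.

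AF357355 had 9.10 and 9.30 in wild type and 9.53 and 9.75 in knockout (log2 fold change 0.44 ± 0.13 SE, unadjusted p = 0.0173). Gm25854 had 5.08 and 5.13 in wild type, within the Y-linked range, and 5.64 and 5.45 in knockout (log2 fold change 0.44 ± 0.12 SE, unadjusted p = 0.00971). In both the groups lay apart, but AF357355 lost its limma call without wild type 1 (unadjusted p = 0.118) or knockout 2 (unadjusted p = 0.108), and Gm25854 without either wild-type array (unadjusted p = 0.0659 and unadjusted p = 0.0509). With these losses the count of called snoRNAs was 3 without wild type 1, and it was also 3 when the clusters that can cross-hybridize were left out. In the brightest snoRNAs the groups overlapped. Gm24564 had 11.06 and 10.56 in wild type and 10.51 and 10.62 in knockout, and without wild type 2 it was called lower by limma (log2 fold change -0.495, unadjusted p = 0.0267). A cluster without a name (17278767) had 10.88, 10.63, 10.87 and 10.97, and AF357425 had 9.91, 9.70, 9.96 and 9.89.

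**Figure D4:**
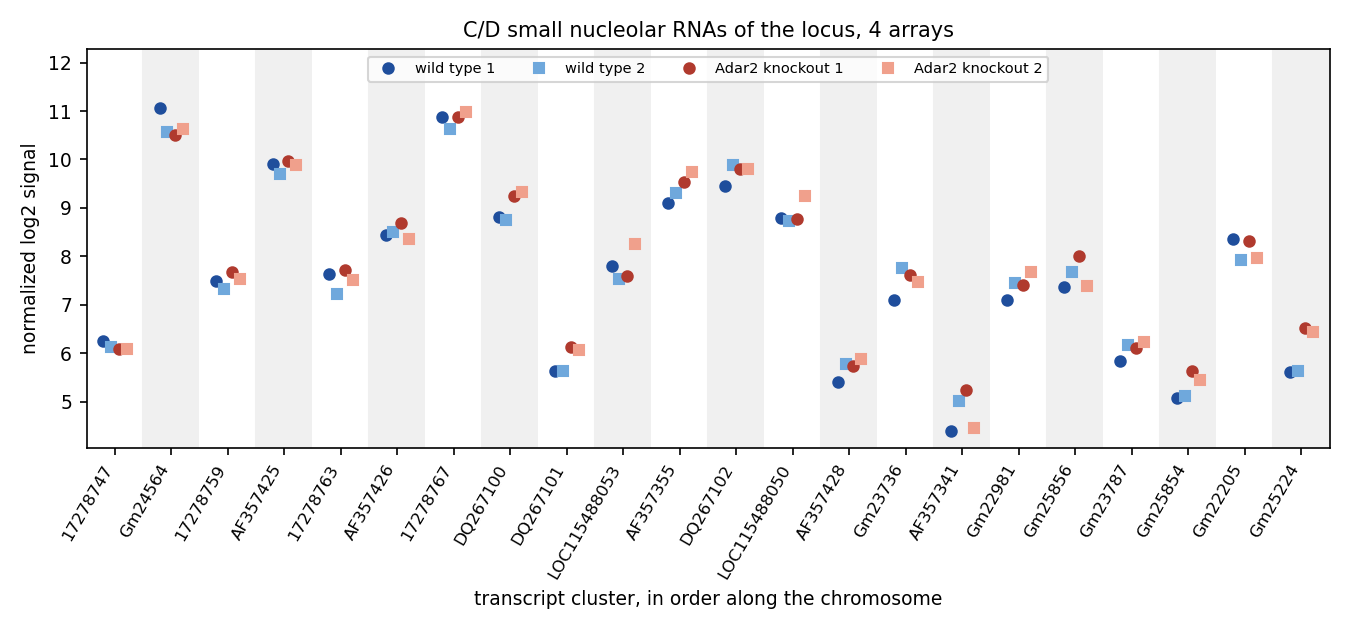
Normalized log2 signal (vertical axis) of the 22 C/D snoRNA clusters in chromosome order, 4 arrays each. In Gm25224, at the right end, both knockout arrays (6.52 and 6.44) lie above both wild-type arrays (5.61 and 5.64).

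The snoRNAs fell into the 13 within the span of Rian and 9 between Rian and Mir379. The median log2 fold change was 0.185 in the former, with 3 called, and 0.175 in the latter, with 2 called. The wild-type arrays differed in the second run, where wild type 1 was below wild type 2 in 8 of the 9 with a median difference of -0.33. The host signal of Rian itself had a log2 fold change of 0.07 ± 0.11 (SE, unadjusted p = 0.552). AF357341 of the second run was the dimmest snoRNA, at 4.39, 5.01, 5.25 and 4.47, within the Y-linked range.

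On the opposite strand, 5 plus-strand clusters carried the name of Rtl1, a minus-strand gene, and lay at the RefSeq positions of Mir431, of Mir433 and Mir127, of Mir434, of Mir432, and of Mir3071 and Mir136. The maternal RNA that crosses Rtl1 there is known to carry microRNAs that cut Rtl1 messenger RNA. Their log2 fold changes ran from -0.215 to 0.20 and none passed the unadjusted test with all 4 arrays. The Mir3071 and Mir136 cluster went from -0.215 to -0.40 and passed limma's test without wild type 2 (unadjusted p = 0.0316), and was -0.03 without wild type 1. The Mir433 and Mir127 cluster had 7.17 and 7.11 in wild type and 7.44 and 7.24 in knockout, with a log2 fold change of 0.20 ± 0.12 (SE, unadjusted p = 0.143). Of the minus-strand clusters, the one named Meg3 had 6.42, 6.71, 6.81 and 6.78, with a log2 fold change of 0.23 that was 0.375 and passed the limma test without wild type 2 (unadjusted p = 0.0376). Of the 4 named for microRNAs, Mir376a was called with all arrays but not without wild type 1, wild type 2 or knockout 2, and Mir409 passed without knockout 2 alone (log2 fold change 0.35, unadjusted p = 0.0498).

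Genes that act on the locus or downstream of it were read from lists, beside the 5.95% of clusters that passed the unadjusted test over the array. Of 18 clusters of 17 imprint regulators (such as Zfp57, Trim28, Ctcf, Dnmt1 and Aff3, which keep or read the imprint), 0 passed the unadjusted test and the median log2 fold change was -0.035. Of 28 clusters of 24 other imprinted genes 0 passed, with a median of 0.0025. Of 13 clusters of 12 genes of thyroid hormone transport and response 0 passed, with a median of 0.06. Dcn, the imprinted gene with the highest fold change of its list, had 9.30, 9.24, 9.48 and 9.57 (unadjusted p = 0.0538). Sgce, with the largest fold change of that list in size, went the other way, with 8.80, 8.48, 8.31 and 8.38 (log2 fold change -0.295, limma, unadjusted p = 0.0803).

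The messenger RNAs described as targets of the unedited or edited miR-376a-5p were read in the same way. Of the targets of the unedited form, Slc16a1, a lactate transporter, had 9.69 and 9.71 in wild type and 9.89 and 9.87 in knockout. The groups lay apart, but its log2 fold change of 0.18 ± 0.10 (SE) had an unadjusted p of 0.127. Srsf11, a splicing factor, had 8.01, 8.02, 7.96 and 8.09, and Ttk, a mitotic kinase, had 4.54, 4.64, 4.49 and 4.68, within the Y-linked range. Of the targets of the edited form, Prps1, which makes phosphoribosyl pyrophosphate, had 8.94, 8.83, 8.97 and 8.81. Snx19 had 8.35, 8.46, 8.49 and 8.49, and Zfp513 had 8.49, 8.35, 8.41 and 8.36. None of the 6 passed the unadjusted test, which 5.95% of all clusters passed. Of 7 neuronal targets of other microRNAs of the locus 0 passed, with a median of -0.075, and Limk1 had 9.27, 9.47, 9.54 and 9.13, with overlapping groups.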

How the data were processed

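Total RNA of 4 brains was hybridised to Affymetrix mouse gene arrays after whole-transcript labelling. The authors deposited normalized log2 signals, to 2 decimals, for 33793 transcript clusters, and the submitters' processing notes name Affymetrix Expression Console and RMA without versions. A further 9 columns hold the authors' group means, ratios, fold changes, p-values and similar comparisons and were not used. The coordinate columns name no genome build, though a transcript description printed in the paper carries a build name. Of 43 microRNA clusters with a RefSeq hairpin of the same name (Mir299 and Mir496 as Mir299a and Mir496a) 43 overlapped it and 33 had its exact GRCm38.p6 span, so coordinates are given as that build. Clusters without a symbol were named by the RefSeq gene at their position.

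Knockout and wild type were compared in R 4.3.3 by limma 3.58.1 (a fit with genotype alone and eBayes shrinkage, two-sided, prior SD 0.125, 3.79 prior degrees of freedom), with Benjamini-Hochberg adjustment over all clusters and no filter. No depth exists for arrays, and precision is set by 2 arrays a genotype. The calculation was tested on simulated data. Named were Adarb1, the long RNAs, 7 precursors described as edited, the 3 brightest clusters of each class, up to 5 rises and 5 falls of greatest size with an unadjusted p below 0.05 and groups apart, the listed targets of miR-376a-5p, and list genes past that p. Members, lists and rules were chosen with earlier results of these data known. Further named clusters, such as Mir300, Mir654, Mir666, Mir154, Mir134, Mir495 and Mir1197, were chosen after their values were seen. Alternatives were other normalizations, a filter on dim clusters, other variance models, a replicate block, omission of single arrays, and omission of clusters that cross-hybridize or repeat another's values. Python 3.11.15 with pandas 2.3.3 was used for the tables.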

Additional observations from a re-analysis of the deposited data

How the results depend on the processing

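No cluster of the locus passed an adjusted p of 0.05 under any of the 14 alternatives, and over the array only a pooled-variance test without shrinkage gave such calls, 15 in all. That test called 4 clusters of the locus at an unadjusted p below 0.05 and 0 microRNA clusters, and it lost Mir376b, Mir666, the minus-strand Mir376a cluster and AF357355. Median centring, which shifts the median of all clusters to -0.035, left 1 microRNA cluster called (Mir376b, with Mir666 lost) and moved the median of the long RNAs to 0.05. It turned the log2 fold change of Dio3os to -0.005, quantile normalization to -0.016 and cyclic loess to -0.012. Without clusters that can cross-hybridize 3 snoRNAs were called, since 2 of the 5 carry that mark. Leaving out each array in turn gave 1221 to 1801 clusters over the array, 4 to 18 in the locus, 3 to 7 snoRNAs, 0 to 9 microRNA clusters and 0 to 1 long RNA, which was Dio3 without knockout 1 (0.42) and the cluster at LOC115488054 without wild type 1 (0.375). The snoRNA median then ran from 0.175 to 0.33 and that of the long RNAs from 0.04 to 0.145. Some fold changes that had not passed the test changed sign in these fits. Their ranges were -0.08 to 0.15 for Dio3os, -0.495 to 0.005 for Gm24564, -0.005 to 0.425 for Mir341, -0.09 to 0.25 for Mir381, -0.275 to 0.075 for Mir411, -0.375 to 0.165 for Mir453, -0.245 to 0.025 for Mir665, -0.005 to 0.145 for Rian and -0.025 to 0.265 for Rtl1. Of the clusters named outside the rule, Mir300 went to 0.07, Mir495 to 0.20 and Mir409 to -0.01 without knockout 2. Without knockout 1 Mir1197 went to -0.345, Mir134 to -0.255, AF357341 to -0.23, Mir1193 to -0.125 and Mir380 to -0.045, and without wild type 1 Mir539 went to 0.01 and the plus-strand cluster at Mir432 to -0.015. The minus-strand clusters of Mir380 and Mir409 went to 0.16 without knockout 2 and to -0.10 without knockout 1. The cause was not tested. The fold changes of the 7 clusters that the naming rule took for an unadjusted p below 0.05 kept their sign in the 13 or 14 alternatives that could be run on each, as did that of Adarb1 (-1.52 to -1.32). Only the other normalizations could have turned a sign. Without single arrays the groups, which lay apart, fix it, and the remaining alternatives leave the fold change as it is. Under a replicate block 8 clusters of the locus were called, 7 of them shared with the fit without it, in which Mir666 is the other call, and 1693 over the array. Same-numbered arrays share no label but the number. Their deviations had an r of 0.052, but 2 arrays a genotype cannot show whether they were paired. Small differences were limited by 2 arrays a genotype and, in 14 clusters, by signals at the level of Y-linked genes.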
